A study of Mus musculus with 36 samples.

Results

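The genes described here are 10 transcripts typical of fibroblasts that encode extracellular matrix proteins other than collagens, or a receptor of the cells that make them: Dcn, Lum, Fbn1, Loxl1, Lox, Fn1, Postn, Sparc, Thbs1 and Pdgfrb. They were chosen by name and with earlier results of these data known, 10 of the 51734 genes in the count table. Their levels were followed over 18 mouse RNA-seq libraries. All 10 passed the filter on low counts, which left 20511 genes for testing. Fibroblasts and related mesenchymal cells secrete fibronectin and fibrillin, on which further matrix is laid down. Lysyl oxidases crosslink collagen and elastin, small leucine-rich proteoglycans such as decorin and lumican bind collagen fibrils, and matricellular proteins such as SPARC and thrombospondin adjust how cells attach. Mouse embryonic fibroblasts are also widely used as a feeder layer under embryonic stem cells, so these transcripts can enter a stem cell library from other cells in the dish.

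All cells were of the E14 mouse line, measured as embryonic stem cells (ESC), kept in medium with KnockOut Serum Replacement and LIF, and as neural precursor cells (NPC) made from them with retinoic acid. The series asks how the histone H3K4 methyltransferases MLL2, MLL3 and MLL4 act in this differentiation. At each stage there were 3 libraries of each of 3 genotypes: wild type (WT), MLL3/4 dCD, in which both enzymes are without catalytic activity (dCD below), and MLL2 dTAG, in which MLL2 carries a tag that directs it to degradation when the compound dTAG-13 is added (MLL2dTAG below). Every one of the 18 libraries, WT included, is labelled as treated with dTAG-13 at 2 µM; in NPC it was added from day 1 and the cells were harvested on day 4. No group was without the compound, and for ESC the sources used here give no duration. Each genotype is a line of its own, so an edit and a difference between lines cannot be told apart. The labels do not mention a feeder layer and do not say whether replicates were separate cultures, so p-values measure only the spread between these libraries.

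Libraries held 19.4 to 46.0 M (mega) counts. Markers of embryonic stem cells (8 genes) summed to between 2780.0 and 3653 CPM (read counts relative to library size, with TMM factors) in ESC libraries. In NPC libraries they summed to 29.0 to 30.1 CPM in WT, 40.9 to 41.7 CPM in dCD and 153 to 155 CPM in MLL2dTAG. The 8 neural progenitor markers summed to 67.1 to 90.2 CPM in ESC and to 231 to 430 CPM in NPC, although Sox1, a defining neural gene, was at 3.10 ± 0.240 CPM (SD, n = 3) in WT NPC and 3.05 ± 0.460 CPM in WT ESC. Gata6, an endoderm gene, was at 127 ± 3.05 CPM in WT NPC, so the NPC cultures also held transcripts of other cell types. In bulk RNA, fewer cells of a type and less RNA per cell cannot be told apart. E14 is a male line, and the libraries labelled MLL2dTAG went against that. There the Y-linked gene Eif2s3y was at 3.67% of its WT level in ESC and at 0.184% in NPC. Kdm5d, also Y-linked, was at 50.5% in ESC, where WT was at 2.64 ± 0.601 CPM, and at 0.702% in NPC. Xist is the noncoding RNA of the inactive X chromosome. In NPC it was at 39.0 ± 3.50 CPM in MLL2dTAG, 12.4 ± 0.218 CPM in dCD and 5.40 ± 0.168 CPM in WT. In ESC, Xist was at 31.4 ± 5.27 CPM in WT and 41.8 ± 1.97 CPM in MLL2dTAG. MLL2dTAG below stands for the libraries so labelled. As all 6 of them share the low Eif2s3y level, no MLL2dTAG result can be given without it, and its part was not tested.

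Promoter sequences are shown for Fbn1, Postn and Sparc, the 3 of the 10 genes with an entry in the promoter table. Fbn1 and Postn rose together in ESC of both edited lines and moved in opposite directions in MLL2dTAG NPC, and Sparc was higher in both edited lines at both stages. They are the RefSeq windows of build GRCm38.p6, 250 bases before to 50 after the annotated start, read in the direction of transcription. Capitals mark CG dinucleotides.

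Fbn1: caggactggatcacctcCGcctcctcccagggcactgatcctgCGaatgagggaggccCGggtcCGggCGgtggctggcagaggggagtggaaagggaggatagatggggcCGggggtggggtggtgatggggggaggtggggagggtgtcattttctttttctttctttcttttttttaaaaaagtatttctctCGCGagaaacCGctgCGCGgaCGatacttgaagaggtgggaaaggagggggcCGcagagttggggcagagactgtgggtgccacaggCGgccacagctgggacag

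Postn: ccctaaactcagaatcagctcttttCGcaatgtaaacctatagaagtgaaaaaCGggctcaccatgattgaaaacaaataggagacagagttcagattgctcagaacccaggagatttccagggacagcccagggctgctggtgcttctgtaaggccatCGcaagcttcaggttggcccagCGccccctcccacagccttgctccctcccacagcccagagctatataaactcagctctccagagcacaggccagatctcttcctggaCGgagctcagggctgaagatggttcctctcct

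Sparc: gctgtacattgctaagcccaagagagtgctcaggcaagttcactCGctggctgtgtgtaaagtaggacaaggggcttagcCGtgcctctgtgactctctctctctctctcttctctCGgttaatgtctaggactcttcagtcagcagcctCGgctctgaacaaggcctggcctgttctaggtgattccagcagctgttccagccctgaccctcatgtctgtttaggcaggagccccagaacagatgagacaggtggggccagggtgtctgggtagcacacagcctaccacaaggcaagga

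The Fbn1 window lies at chr2:125506389-125506688 on the minus strand and holds 14 CG dinucleotides; 63.7% of the 32851 promoter windows hold fewer, and their median is 7. The Postn window, chr3:54360857-54361156 on the plus strand, holds 5, and the Sparc window, chr11:55420031-55420330 on the minus strand, holds 4. On either strand, TATAAA occurs in the Postn window and in 13.62% of all windows, and GGGCGG occurs in the Fbn1 window and in 35.66% of all windows. Neither TGANTCA (7.808% of all windows) nor CATTCC (14.66%) occurs in any of the 3. These matches describe letters and were not tied to binding of any factor. A further Postn entry, at another annotated start, is not shown.

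Compared per kilobase of annotated exon, the genes spanned a wide range of levels. Fn1, which encodes fibronectin, was the most abundant of the 10 in WT ESC, at 244 ± 24.6 CPM per kb. Sparc, which encodes a collagen-binding matricellular protein, was the most abundant in WT NPC, at 220 ± 3.36 CPM per kb, ahead of Fn1 at 32.1 ± 0.364 CPM per kb. Lum was the least abundant in all 6 groups, at 0.0473 ± 0.0344 CPM per kb in WT ESC. All further levels are CPM per gene, and changes are log2 differences with their standard error (SE). Adjusted p is from the edgeR quasi-likelihood test with Benjamini-Hochberg adjustment over 20511 genes, and a gene rose or fell where adjusted p was under 0.05.

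**Figure D1:**
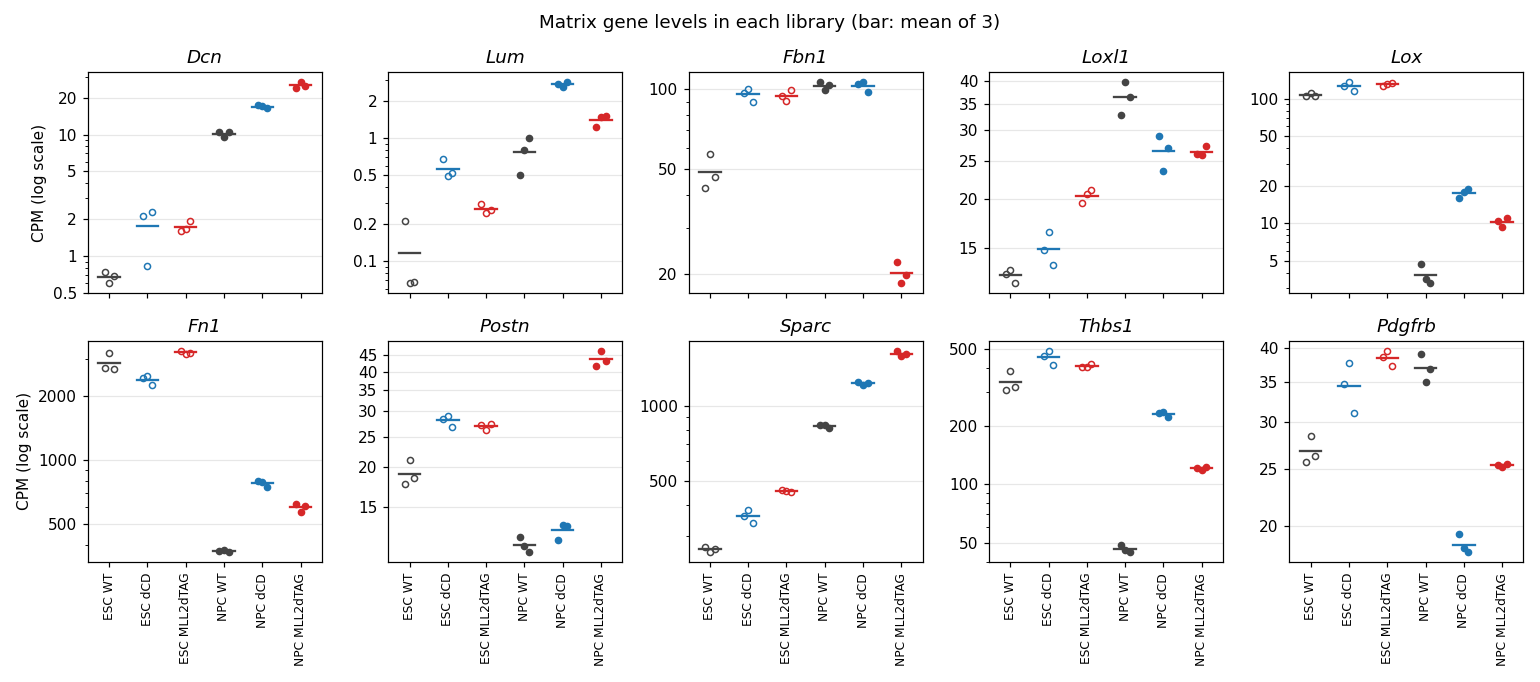
CPM of the 10 genes in each library (points, log axis, a range of its own for each gene) and the mean of 3 libraries (bars), for WT, dCD and MLL2dTAG in ESC (open) and NPC (filled). Fbn1 in MLL2dTAG NPC sits between 18.5 and 22.3 CPM, below every other group, and Postn in the same libraries sits between 41.6 and 46.5 CPM, above every other group.

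In WT cells, differentiation divided the genes. All 10 were called, where 79.5% of all genes tested were. Of these, 6 were higher in NPC (39.1% of all genes were) and 4 lower (40.4%), and for all 10 the libraries did not overlap, as for 79.7% of all genes. Dcn, Lum, Sparc, Loxl1, Fbn1 and Pdgfrb rose, and Lox, Fn1, Thbs1 and Postn fell. The median change was 0.77 on the log2 scale, against -0.04 for all genes tested. The largest rise was that of Dcn (3.92, SE 0.19) and the largest fall that of Lox (-4.81, SE 0.08).

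The 2 edited lines were each compared with WT at each stage, to see which of these transcripts differ without MLL3/4 catalytic activity or with the degron on MLL2. Both comparisons at a stage share the same WT libraries. Because the genes were chosen with earlier results of these data known, the shares of all genes are given for scale and are no test. In ESC, 10 of 10 genes were called in dCD, where 48.3% of all genes were, and 10 of 10 in MLL2dTAG, where 56.9% were. In dCD, 9 were higher (25.7% of all genes were) and 1, Fn1, was lower (22.6%), with a median of 0.44 against 0.02 for all genes. In MLL2dTAG all 10 were higher and 0 lower (28.7% and 28.2% of all genes), with a median of 0.60 against -0.00 for all genes. In NPC the genes divided: 8 of 10 were called in dCD (53.5% of all genes called) and 10 of 10 in MLL2dTAG (61.7%). In dCD NPC 6 were higher and 2 lower (26.7% and 26.8% of all genes), and in MLL2dTAG NPC 7 were higher and 3 lower (33.3% and 28.4%). The medians in NPC were 0.66 in dCD against -0.02 for all genes, and 0.92 in MLL2dTAG against 0.03. The edited line and WT had no overlapping libraries for 10, 9, 8 and 10 of the genes in these 4 comparisons, where 51.8%, 59.7%, 60.1% and 67.9% of all genes had no overlap.

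**Figure D2:**
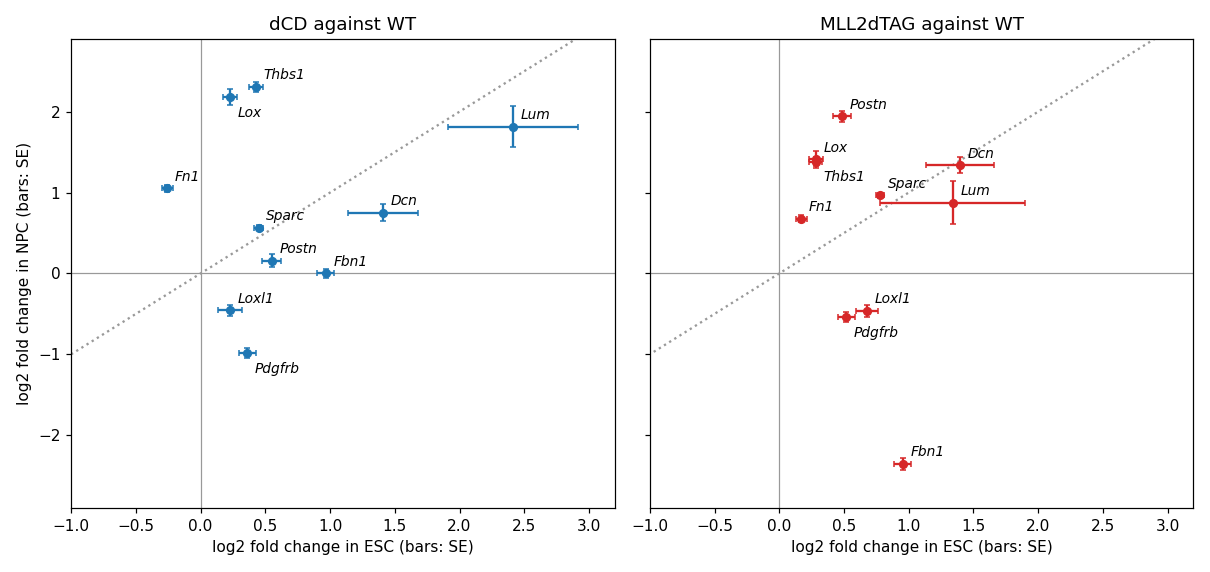
Log2 fold change against WT in ESC (horizontal axis) and in NPC (vertical axis) for the 10 genes, in dCD and in MLL2dTAG, with SE as bars and a dotted line where both changes are equal. Most genes sit to the right of 0 in ESC in both lines, while in NPC they spread from Fbn1 at -2.36 in MLL2dTAG to Thbs1 at 2.31 in dCD.

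Decorin, encoded by Dcn, is a proteoglycan that binds collagen fibrils and growth factors. Its ESC level was 0.745, 0.597 and 0.680 CPM in the WT libraries, at 2.13, 0.828 and 2.31 CPM in dCD and at 1.61, 1.68 and 1.93 CPM in MLL2dTAG. Replicate 2 of dCD stood near WT, with 20 counts against 14, 18 and 20 in the WT libraries. No edited library overlapped WT in CPM, but these counts are low. Dcn rose in both lines in ESC, by 1.41 (SE 0.27; adjusted p = 4.6e-05) in dCD and 1.40 (SE 0.26; adjusted p = 1.9e-05) in MLL2dTAG. Each call was kept in 16 of 16 alternative analyses, halved counts among them. Its NPC level was 10.5, 9.48 and 10.4 CPM in WT, 17.5, 17.2 and 16.5 CPM in dCD and 24.4, 27.2 and 25.3 CPM in MLL2dTAG. The 3 NPC groups were fully apart, in the order WT, dCD, MLL2dTAG. The NPC rises were 0.75 (SE 0.10; adjusted p = 1.3e-07) and 1.34 (SE 0.10; adjusted p = 5e-14).

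Lumican, encoded by Lum, is a related proteoglycan that takes part in fibril spacing in cornea and skin. It was close to the limit of counting in ESC: the WT libraries had 4, 2 and 2 counts (0.213, 0.0663 and 0.0680 CPM). The dCD libraries were at 0.683, 0.497 and 0.522 CPM and those of MLL2dTAG at 0.293, 0.248 and 0.261 CPM. The ESC rise was 2.41 (SE 0.50; adjusted p = 0.00013) in dCD. In MLL2dTAG it was 1.34 (SE 0.56, adjusted p = 0.04), a call kept in only 6 of 14 alternative analyses. It was lost when counts were halved (adjusted p = 0.11), with no filter on low counts (0.077) and with limma voom (0.053). It was also lost without WT replicate 2 (1.06, adjusted p = 0.17) or 3 (0.15), or without any 1 MLL2dTAG replicate (0.055 to 0.076). Without WT replicate 1 the ESC changes were 3.004 in dCD and 1.93 in MLL2dTAG, and the change from WT ESC to WT NPC was 3.46 in place of 2.87. In NPC, Lum was at 0.506, 0.799 and 1.01 CPM in WT, 2.76, 2.59 and 2.87 CPM in dCD and 1.25, 1.502 and 1.51 CPM in MLL2dTAG. There it was highest in dCD, with a rise of 1.81 (SE 0.26; adjusted p = 1.7e-07), and the rise in MLL2dTAG was 0.87 (SE 0.27; adjusted p = 0.0048). The order of the edited lines in NPC was thus the reverse of that of Dcn: dCD against MLL2dTAG was 0.94 (SE 0.23; adjusted p = 0.00078) for Lum and -0.59 (SE 0.10; adjusted p = 2.1e-06) for Dcn.

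The counts of this list and those below stand beside shares of all genes called higher and lower. These were 26.7% and 26.8% in dCD NPC and 33.3% and 28.4% in MLL2dTAG NPC. In ESC they were 25.7% and 22.6% in dCD and 28.7% and 28.2% in MLL2dTAG. Of the other 10 small leucine-rich proteoglycans listed, 9 were tested. In NPC, 2 rose and 1 fell in dCD, and 3 rose and 0 fell in MLL2dTAG. Bgn, which encodes biglycan, rose by 1.69 (SE 0.10) in dCD NPC and 2.51 (SE 0.09) in MLL2dTAG NPC, from 4.25 ± 0.933 CPM in WT. Bgn had been at 187 ± 7.33 CPM in WT ESC. In ESC, 1 rose and 1 fell in dCD, and 2 rose and 1 fell in MLL2dTAG. Epyc and Kera, neighbours of Lum and Dcn on chromosome 10 and also of this family, had group means of at most 1.72 CPM and 0.0409 CPM.

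Fibrillin-1, encoded by Fbn1, forms the microfibrils that scaffold elastic fibres and hold latent TGF-beta. The ESC libraries had 42.4, 56.8 and 46.5 CPM in WT, 96.6, 101 and 89.9 CPM in dCD and 94.3, 90.7 and 99.1 CPM in MLL2dTAG. Both edited lines stood apart from WT and overlapped each other. The rises were 1.95-fold in dCD (0.97, SE 0.07; adjusted p = 2.7e-14) and 1.94-fold in MLL2dTAG (0.95, SE 0.07; adjusted p = 8.8e-15). In NPC, WT was at 106, 99.4 and 104 CPM and dCD at 105, 107 and 97.4 CPM, and these 2 groups overlapped. The MLL2dTAG NPC libraries were at 22.3, 18.5 and 19.9 CPM. Fbn1 fell 5.13-fold there (-2.36, SE 0.07; adjusted p = 1.2e-25), and these libraries lay below those of every other group. The change in NPC differed from that in ESC by -3.31 (SE 0.10; adjusted p = 5.8e-25) in MLL2dTAG and by -0.97 (SE 0.09; adjusted p = 4.5e-11) in dCD.

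The other 15 genes of microfibrils and elastic fibres did not move as 1 block. In MLL2dTAG NPC, 8 rose and 7 fell, with a median of 0.25. Efemp1, which encodes a fibulin, fell by 1.61 on the log2 scale (SE 0.07) and Ltbp2, which encodes a microfibril-bound latent TGF-beta binding protein, rose by 2.37 (SE 0.16). In dCD NPC, 10 rose and 5 fell, and Ltbp2 was again the gene with the highest change (2.68, SE 0.15), while Emilin1 was lowest (-0.63, SE 0.06). In ESC, 10 rose and 3 fell in dCD, and 9 rose and 5 fell in MLL2dTAG. Fbn2, the fibrillin of early embryos, was at 2.64 ± 0.878 CPM in WT ESC and 351 ± 5.05 CPM in WT NPC, a rise of 7.00 (SE 0.07).

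Lox encodes lysyl oxidase, which starts the crosslinking of collagen and elastin. Its level in ESC was 106, 111 and 106 CPM in WT, 127, 136 and 115 CPM in dCD and 127, 132 and 134 CPM in MLL2dTAG, all edited libraries being above WT. The ESC rises were small, 0.23 (SE 0.06; adjusted p = 0.00087) in dCD and 0.28 (SE 0.06; adjusted p = 3.5e-05) in MLL2dTAG. In NPC the WT libraries were at 4.72, 3.59 and 3.30 CPM, 27.99-fold below WT ESC on the fitted scale. The dCD libraries were at 15.8, 17.7 and 18.8 CPM and those of MLL2dTAG at 10.4, 9.32 and 10.9 CPM, with the 3 groups fully apart. Lox was 4.55-fold higher in dCD NPC (2.18, SE 0.10; adjusted p = 6.4e-20) and 2.65-fold higher in MLL2dTAG NPC (1.41, SE 0.11; adjusted p = 5.3e-14). All 6 edited NPC libraries remained far below the ESC libraries. In MLL2dTAG NPC, 8 of 8 stem cell markers rose as well, where 33.3% of all genes were called higher. In dCD NPC, 1 of the 8 rose and 1 fell. Lox, Fn1, Thbs1 and Postn all fell from WT ESC to WT NPC and rose in MLL2dTAG NPC. The part of stem cell RNA in these rises was not tested.

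Loxl1 encodes a lysyl oxidase relative needed for elastic fibres. ESC libraries had 12.9, 13.2 and 12.2 CPM in WT, 14.9, 16.5 and 13.6 CPM in dCD and 19.5, 20.6 and 21.1 CPM in MLL2dTAG. The rise in MLL2dTAG was 0.68 (SE 0.09; adjusted p = 1.7e-08). The call of the rise in dCD, 0.23 (SE 0.09, adjusted p = 0.04), was kept in 9 of 16 alternative analyses. It was lost without WT replicate 1 (adjusted p = 0.057), WT replicate 3 (0.14), dCD replicate 1 (0.068) or dCD replicate 2 (0.23). Halved counts (0.074), limma voom (0.11) and a fit of only the groups compared (0.071) also removed it. NPC libraries had 32.8, 39.7 and 36.4 CPM in WT, 29.0, 23.6 and 26.9 CPM in dCD and 26.0, 25.9 and 27.2 CPM in MLL2dTAG. Both edited lines lay below WT and overlapped each other. Loxl1 fell by 0.46 on the log2 scale in each (SE 0.07 in both; adjusted p = 1.1e-06 in dCD and 5.6e-07 in MLL2dTAG), so Lox and Loxl1 moved in opposite directions in NPC of both lines.

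Of the 14 other genes for crosslinking and collagen processing, 9 rose and 4 fell in dCD NPC, and 11 rose and 2 fell in MLL2dTAG NPC. P4ha3, a prolyl hydroxylase subunit, had the highest change in both, 2.496 (SE 0.08) in dCD and 2.32 (SE 0.08) in MLL2dTAG, from 8.32 ± 0.920 CPM in WT NPC. Tgm2, which encodes tissue transglutaminase, fell by 1.04 on the log2 scale (SE 0.04) in dCD NPC. In ESC, 6 rose and 5 fell in dCD, and 8 rose and 4 fell in MLL2dTAG.

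Fibronectin, encoded by Fn1, is the adhesive matrix protein bound by integrin alpha-5 beta-1. Fn1 was at 2701, 3182 and 2668 CPM in WT, 2420, 2483 and 2247 CPM in dCD and 3262, 3165 and 3194 CPM in MLL2dTAG in ESC. WT replicate 2 reached into the MLL2dTAG range, and the dCD libraries were below both. Fn1 was the one gene of the 10 that fell in dCD ESC, by 0.26 on the log2 scale (SE 0.04; adjusted p = 4.1e-06), and in MLL2dTAG ESC it rose by 0.17 (SE 0.04; adjusted p = 0.00083). Fn1 in NPC was at 375, 379 and 371 CPM in WT, 797, 787 and 751 CPM in dCD and 620, 571 and 610 CPM in MLL2dTAG. The NPC rises were 2.08-fold in dCD (1.05, SE 0.04; adjusted p = 5.5e-21) and 1.60-fold in MLL2dTAG (0.68, SE 0.04; adjusted p = 6.8e-16). In dCD the change against WT thus had opposite signs at the 2 stages, and the difference between stages was 1.31 (SE 0.06; adjusted p = 5.6e-19).

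Thrombospondin-1, encoded by Thbs1, is a matricellular protein that binds CD36, CD47 and integrins and activates latent TGF-beta. Thbs1 in ESC was at 305, 383 and 318 CPM in WT, 458, 488 and 410 CPM in dCD and 402, 405 and 416 CPM in MLL2dTAG. WT replicate 2 was the highest of its group and still below every edited library. The ESC rises were 0.43 (SE 0.05; adjusted p = 3e-08) in dCD and 0.28 (SE 0.05; adjusted p = 3.2e-05) in MLL2dTAG. Thbs1 in NPC was at 48.8, 45.9 and 44.8 CPM in WT, 233, 235 and 222 CPM in dCD and 122, 118 and 123 CPM in MLL2dTAG, 3 groups with wide gaps. Thbs1 was 4.95-fold higher in dCD NPC (2.31, SE 0.06; adjusted p = 1.1e-26), the largest rise among the 10 genes there, and 2.61-fold higher in MLL2dTAG NPC (1.38, SE 0.06; adjusted p = 1.3e-20).

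Of the 11 receptors of fibronectin and thrombospondin listed, 7 rose and 2 fell in dCD NPC, and 7 rose and 3 fell in MLL2dTAG NPC. Itga5, the alpha chain of the main fibronectin receptor, rose by 1.06 (SE 0.04) in dCD NPC, from 65.7 ± 2.45 CPM in WT. Itga8, another integrin alpha chain, fell by 0.74 on the log2 scale (SE 0.09) in dCD NPC and by 1.52 (SE 0.09) in MLL2dTAG NPC. In ESC, 4 rose and 2 fell in dCD, and 6 rose and 4 fell in MLL2dTAG.

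Periostin, encoded by Postn, is a matricellular protein of periosteum, tendon and injured tissue. In ESC it was at 17.7, 21.0 and 18.6 CPM in WT, 28.5, 29.0 and 26.8 CPM in dCD and 27.2, 26.3 and 27.3 CPM in MLL2dTAG. Both edited lines were above WT and overlapped each other, with rises of 0.55 (SE 0.07; adjusted p = 5.1e-08) and 0.49 (SE 0.07; adjusted p = 2e-07). In NPC it was at 12.1, 11.3 and 10.8 CPM in WT, 11.8, 13.2 and 13.1 CPM in dCD and 41.6, 46.5 and 43.3 CPM in MLL2dTAG. WT and dCD overlapped (0.16, SE 0.08; adjusted p = 0.084, or 0.043 without dCD replicate 1). In MLL2dTAG NPC Postn was 3.85-fold higher than in WT (1.94, SE 0.07; adjusted p = 2.1e-23). Postn thus rose in the libraries in which Fbn1 fell. Across the 9 NPC libraries, Pearson's r of log2 CPM of Fbn1 and Postn was -0.99, and across the 9 ESC libraries it was 1.00. These libraries are 3 groups of 3, so each r describes group differences.

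Sparc was higher in both edited lines at both stages. In ESC it was at 271, 258 and 265 CPM in WT, 362, 381 and 339 CPM in dCD and 458, 453 and 450 CPM in MLL2dTAG. In NPC it was at 842, 837 and 818 CPM in WT, 1250, 1215 and 1232 CPM in dCD and 1668, 1586 and 1625 CPM in MLL2dTAG. At both stages the 3 groups were fully apart in the order WT, dCD, MLL2dTAG. The rises in dCD were 0.45 (SE 0.03; adjusted p = 2e-13) in ESC and 0.57 (SE 0.03; adjusted p = 4.2e-17) in NPC. Those in MLL2dTAG were 0.78 (SE 0.03; adjusted p = 1.6e-20) and 0.97 (SE 0.03; adjusted p = 5e-24).

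Among the 14 other matricellular genes, 8 rose and 4 fell in dCD NPC, and 7 rose and 5 fell in MLL2dTAG NPC. Tnc, which encodes tenascin-C, rose by 3.72 (SE 0.06) in dCD NPC, from 20.3 ± 0.996 to 269 ± 8.80 CPM. Spp1, which encodes osteopontin, rose by 2.58 (SE 0.06) in MLL2dTAG NPC, and Tgfbi fell there by 1.59 on the log2 scale (SE 0.05). In ESC, 11 rose and 1 fell in dCD, and 9 rose and 5 fell in MLL2dTAG.

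Basement membrane genes other than collagens (11 listed) were taken beside these because Sparc and Fn1 products also lie there. In MLL2dTAG NPC, 8 rose and 1 fell, and Lama1, the laminin alpha chain of early embryos and endoderm, rose by 2.01 (SE 0.05). In dCD NPC, 5 rose and 4 fell, and Nid1, which encodes nidogen, rose by 2.40 (SE 0.04). In dCD ESC, 1 rose and 8 fell, with a median of -0.37, while in MLL2dTAG ESC 5 rose and 3 fell. Markers of primitive and parietal endoderm rose in MLL2dTAG NPC, 11 of 11, where 33.3% of all genes were called higher. Their summed level was 4387 to 4420 CPM, against 1737 to 1859 CPM in WT NPC and 1620.2 to 1660.0 CPM in dCD NPC. Most of the sum was Col4a1, a basement membrane collagen gene, and Lama1, which is in the basement membrane list as well. Col4a1 was at 2234 ± 20.0 CPM in MLL2dTAG NPC and 1040 ± 46.1 CPM in WT NPC, and Lama1 at 1149 ± 9.42 and 285 ± 12.3 CPM. Gata4 was at 253 ± 3.76 CPM in MLL2dTAG NPC and at 62.6 ± 0.663 CPM in WT NPC. In dCD, where Sparc rose at both stages, 1 of the 11 markers rose and 6 fell at each stage. Endothelial markers also changed in MLL2dTAG NPC, where 4 of 7 rose and 1 fell. The part of endoderm cells in the Sparc and Postn results was not tested.

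Pdgfrb encodes the receptor of PDGF-B on fibroblasts and mural cells. In ESC it was at 25.7, 28.4 and 26.2 CPM in WT, 34.7, 37.7 and 31.0 CPM in dCD and 38.6, 39.5 and 37.2 CPM in MLL2dTAG, so WT was lowest and the edited lines overlapped. The rises were 0.36 (SE 0.07; adjusted p = 1.9e-05) and 0.52 (SE 0.06; adjusted p = 9.5e-09). In NPC it was at 39.0, 35.0 and 36.8 CPM in WT, 19.4, 18.4 and 18.1 CPM in dCD and 25.4, 25.2 and 25.5 CPM in MLL2dTAG. WT was highest there and the 3 groups were fully apart. Pdgfrb fell 1.98-fold in dCD NPC (-0.99, SE 0.06; adjusted p = 1.5e-15) and 1.45-fold in MLL2dTAG NPC (-0.54, SE 0.06; adjusted p = 1.2e-09).

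Of the 9 mural cell markers, which include smooth muscle genes, 8 were tested, and in dCD NPC 4 were higher than in WT, 3 were lower and 1 was not called. Their summed level was 833 to 886 CPM, against 266 to 284 CPM in WT NPC and 437 to 455 CPM in MLL2dTAG NPC, with 9 of 9 genes counted in each. Most of the sum in dCD NPC was Acta2, smooth muscle actin, at 541 ± 16.1 CPM, against 40.5 ± 0.595 CPM in WT NPC. Most of the sum in WT NPC was Notch3, at 188 ± 10.9 CPM. The part of such cells in the results for dCD NPC was not tested. Of the 6 other PDGF pathway genes, 3 rose and 1 fell in dCD NPC, and 2 rose and 3 fell in MLL2dTAG NPC. Pdgfa, a ligand of the alpha receptor, rose by 1.03 (SE 0.07) in dCD NPC. Pdgfra, the alpha receptor, rose by 1.35 (SE 0.04) in MLL2dTAG NPC, and Pdgfrl fell there by 3.30 on the log2 scale (SE 0.14).

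Across the 9 NPC libraries, Lox, Fn1 and Thbs1 ranked WT, MLL2dTAG, dCD from low to high, and Pdgfrb ranked in the reverse order. Pearson's r of log2 CPM was 0.98 to 1.00 between the first 3 and -0.97 to -0.99 between each of them and Pdgfrb. Lum had the same order as the first 3, with r of 0.89 to 0.93 with them and -0.96 with Pdgfrb. In ESC the same pairs gave other values, for example -0.16 for Fn1 and Thbs1 and 0.80 for Thbs1 and Pdgfrb. These are descriptions of 3 groups of 3 libraries.

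The ESC pattern was set beside 16 fibroblast markers that are not among the 10 genes, among them the fibrillar collagens and Thy1, Prrx1, Twist1 and Dpt. These markers too were chosen with earlier results of these data known. In dCD ESC, 15 of the 16 rose and 0 fell, where 25.7% of all genes were called higher, with a median of 0.59. In MLL2dTAG ESC, 16 of 16 rose, where 28.7% of all genes were called higher, with a median of 0.78. Their summed level was 747 to 918 CPM in WT ESC, 1152 to 1271 CPM in dCD ESC and 1310 to 1383 CPM in MLL2dTAG ESC. None of the 16 was at 0 in ESC, but 3 were under 1 CPM in WT ESC, 2 in dCD ESC and 0 in MLL2dTAG ESC. Prrx1, a mesenchymal transcription factor, rose by 1.30 (SE 0.08) in each line, from 17.8 ± 1.19 CPM in WT. Xist, which male cells hardly express, was at 31.4 ± 5.27 CPM in WT ESC, 36.9 ± 3.97 CPM in dCD ESC and 41.8 ± 1.97 CPM in MLL2dTAG ESC. The part of RNA from fibroblasts, such as a feeder layer, in the ESC differences was not tested.

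**Figure D3:**
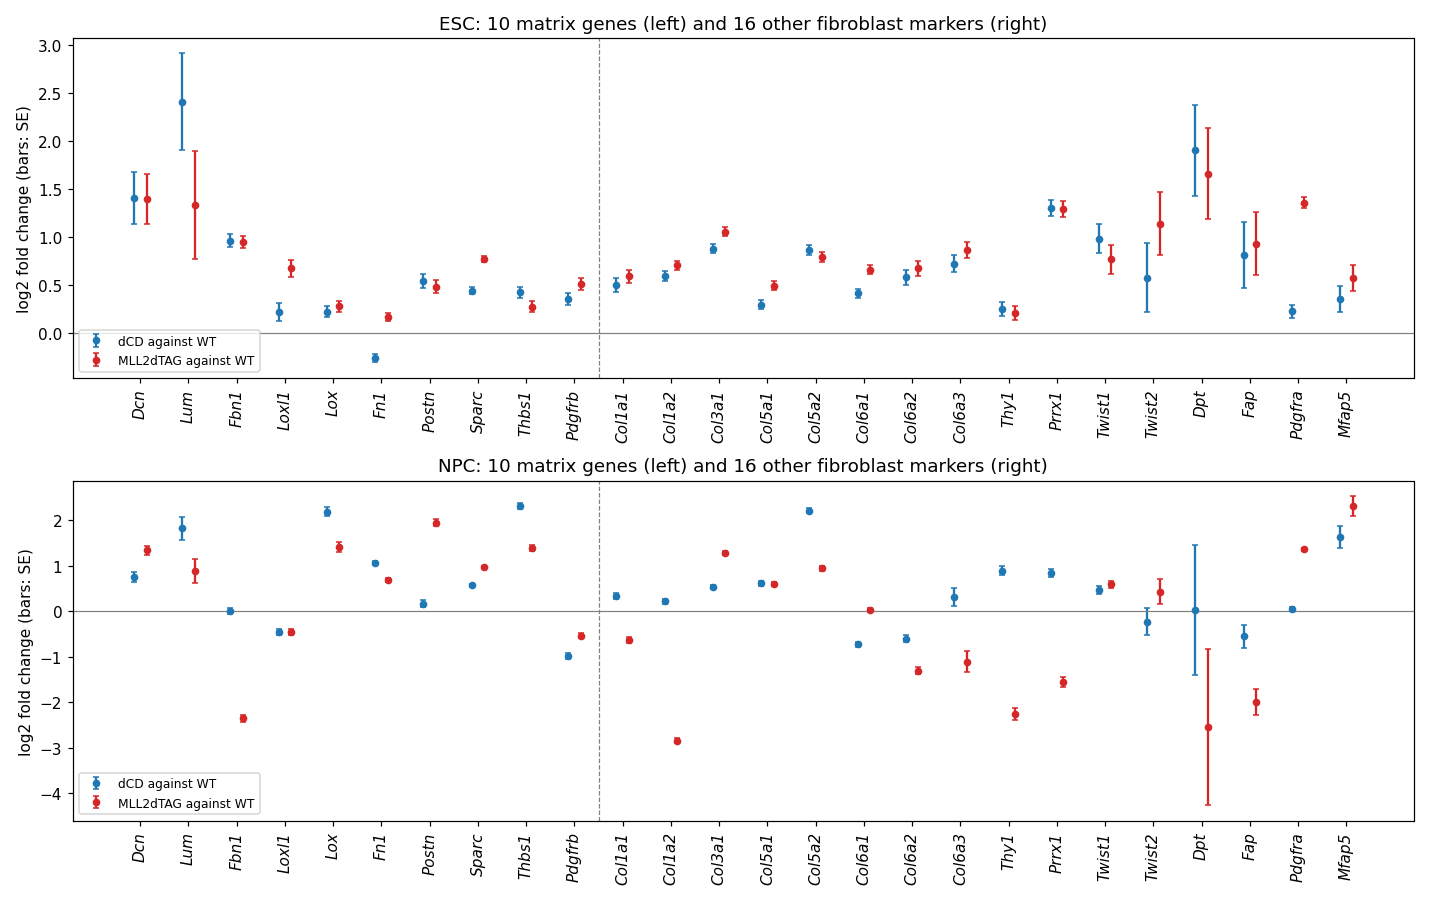
Log2 fold change against WT of the 10 genes beside that of the 16 other fibroblast markers, for each line and stage. In ESC both sets lie mostly above 0 in both lines, and in NPC of MLL2dTAG the markers range down to Col1a2 at -2.85.

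**Figure D4:**
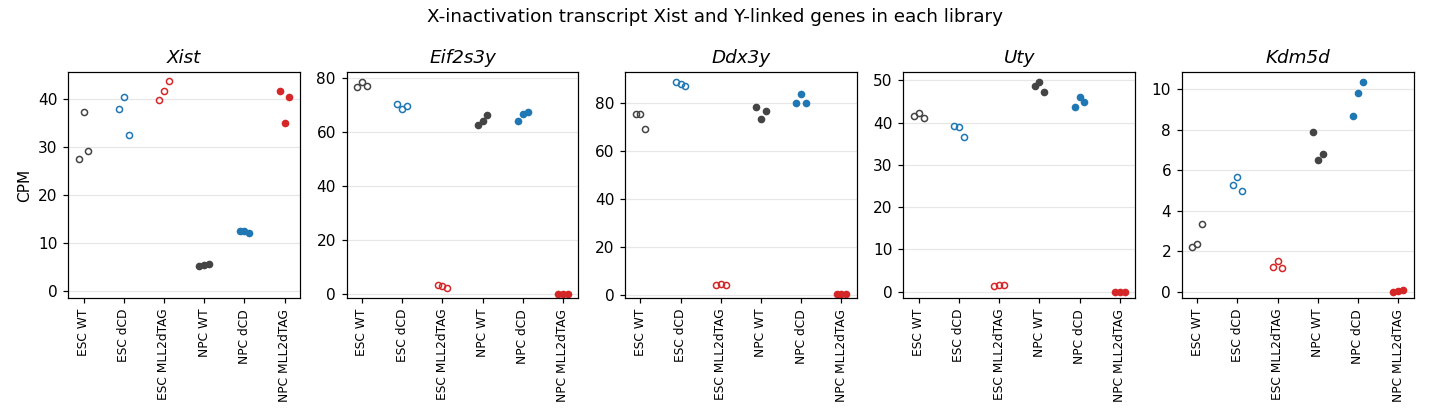
CPM of Xist and Y-linked genes in each library of the 6 groups. Mean Eif2s3y is 77.6 CPM in WT ESC, 2.85 CPM in MLL2dTAG ESC and 0.118 CPM in MLL2dTAG NPC, and Xist is at 27.5 CPM or more in all ESC libraries.

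Ratios to collagen were also taken within each library. Relative to the sum of Col1a1, Col1a2 and Col3a1, the log2 ratio of Postn was -4.64 ± 0.04 (SD, n = 3) in WT ESC, -4.69 ± 0.04 in dCD ESC and -4.86 ± 0.03 in MLL2dTAG ESC. The ratio of Dcn was -9.47 ± 0.33 in WT, -8.83 ± 0.86 in dCD and -8.82 ± 0.10 in MLL2dTAG, and the WT libraries (-9.83 to -9.18) overlapped those of dCD (-9.81 to -8.20). The ratio of Fbn1 was -3.31 ± 0.05 in WT, -2.93 ± 0.05 in dCD and -3.05 ± 0.01 in MLL2dTAG, and that of Fn1 was 2.58 ± 0.06, 1.71 ± 0.04 and 2.03 ± 0.05 in the same order. The ratio of Thbs1 was -0.51 ± 0.01 in WT, -0.69 ± 0.07 in dCD and -0.95 ± 0.03 in MLL2dTAG. In the same order, Sparc was at -0.85 ± 0.21, -1.01 ± 0.06 and -0.79 ± 0.06. Loxl1 was at -5.22 ± 0.15, -5.60 ± 0.10 and -5.26 ± 0.06, and Pdgfrb at -4.16 ± 0.10, -4.40 ± 0.09 and -4.35 ± 0.09. Lox was at -2.15 ± 0.14, -2.53 ± 0.08 and -2.59 ± 0.05, and Lum at -12.24 ± 1.09, -10.34 ± 0.21 and -11.52 ± 0.13. In WT ESC, replicate 2 had the highest collagen sum, 545 CPM against 433 and 459 CPM, and also the highest Fbn1, Postn, Fn1, Thbs1, Pdgfrb, Lox and Loxl1, while its Dcn, Lum and Sparc were the lowest of the 3 libraries (for Lum, 2 counts, as in replicate 3).

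In NPC the same 16 markers did not rise together. In dCD NPC, 9 rose, 2 fell and 5 were not called, with a median of 0.32. In MLL2dTAG NPC, 6 rose, 7 fell and 3 were not called, with a median of -0.31. There Thy1 was at 1.23 ± 0.0344 CPM against 5.87 ± 0.373 CPM in WT NPC, and Col6a3 at 1.21 ± 0.289 CPM against 2.53 ± 0.767 CPM. Dpt had 0 counts in all 3 libraries, but only 2 counts in all of WT NPC. In the other direction, Pdgfra was at 160 ± 2.61 CPM against 62.8 ± 2.58 CPM in WT NPC. Col5a2 was at 64.5 ± 0.935 CPM against 33.7 ± 1.07 CPM. In the MLL2dTAG NPC libraries Dcn, Postn and Sparc were at their highest of the 6 groups. The summed level, led by Col3a1 at 716 ± 6.60 CPM, was 1379 to 1400 CPM against 981 to 1002 CPM in WT NPC, so the sum and the counts of genes went in different directions.

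The edited lines were also compared directly with each other. In ESC, 6 of the 10 genes were called between dCD and MLL2dTAG, where 47.2% of all genes were. Lum and Thbs1 were higher in dCD (2 genes; 23.7% of all genes), and Loxl1, Fn1, Sparc and Pdgfrb were lower (4 genes; 23.4%). The libraries did not overlap for 4 of the 10, against 55.0% of all genes. The number of genes called was 3 without dCD replicate 1 or without MLL2dTAG replicate 2. Lum lost its call without dCD replicate 1 (0.93, adjusted p = 0.093) and without MLL2dTAG replicate 2 or 3, and its adjusted p was 0.056 with halved counts and 0.068 with no filter on low counts. Thbs1 lost it with DESeq2 (0.15, adjusted p = 0.093) and without dCD replicate 1 or 2 or MLL2dTAG replicate 1 or 2, with an adjusted p of up to 0.22. Pdgfrb lost it with upper quartile scaling (-0.10, adjusted p = 0.19) and without dCD replicate 1 or 3 or MLL2dTAG replicate 1 or 2, with an adjusted p of up to 0.32. Dcn, Fbn1, Lox and Postn did not pass, with differences of 0.01 (SE 0.21), 0.01 (SE 0.06), -0.06 (SE 0.05) and 0.06 (SE 0.07). In NPC, 9 of the 10 were called, where 55.9% of all genes were. Lum, Fbn1, Lox, Fn1 and Thbs1 were higher in dCD (5 genes; 24.3% of all genes), and Dcn, Postn, Sparc and Pdgfrb were lower (4 genes; 31.6%). The libraries did not overlap for 9 of the 10, against 62.1% of all genes. The widest differences were Fbn1 (2.36, SE 0.07; adjusted p = 1.5e-25) and Postn (-1.79, SE 0.07; adjusted p = 2e-22), and Loxl1 did not pass (0.00, SE 0.07; adjusted p = 0.97).

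For 8 of the 10 genes the dCD change differed between the stages (42.9% of all genes called), and for 8 the MLL2dTAG change did (49.0%). In dCD 4 of these were higher in NPC than in ESC and 4 lower (20.0% and 22.9% of all genes), and in MLL2dTAG 5 were higher and 3 lower (26.4% and 22.6%). In both lines Fbn1, Loxl1 and Pdgfrb changed downward in NPC relative to ESC, and Lox, Fn1, Thbs1 and Sparc upward. The Sparc values were small, 0.12 (SE 0.05; adjusted p = 0.035) in dCD and 0.19 (SE 0.05; adjusted p = 0.00078) in MLL2dTAG. In dCD Sparc lost the call with upper quartile scaling, with no filter on low counts, in a fit of only the groups compared, and without any 1 of ESC WT replicate 1 or 3, ESC dCD replicate 1 or 3, NPC WT replicate 2 or 3 and NPC dCD replicate 1 or 3, with an adjusted p of up to 0.2 (0.07, without ESC dCD replicate 3). In MLL2dTAG it lost the call with library totals alone (0.10, adjusted p = 0.063) and with no filter (0.09, adjusted p = 0.17). Postn had a lower change in NPC in dCD (-0.39, SE 0.10; adjusted p = 0.0026) and a higher one in MLL2dTAG (1.46, SE 0.10; adjusted p = 7.1e-15). Dcn and Lum did not pass in either line. For Dcn in dCD the value was -0.66 (SE 0.30; adjusted p = 0.071), and without dCD ESC replicate 2 it was -0.99 (adjusted p = 0.00097).

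The genes most like each of the 10, by Pearson's r of log2 CPM over the 18 libraries among 15143 genes, were found with the 10 left out. For genes whose ESC and NPC libraries lie far apart, r mostly follows the stage. This does not hold for Fbn1, Postn and Pdgfrb, whose ranges of group means in ESC and in NPC overlap. Prg4 and Nup93 were close to Lox (r = 0.99 each), and the closest to Fn1 were Adgre5, Col5a3 and Myo10 (0.99 each). For Thbs1 they were Lgals3, Gpnmb and Hspb1 (0.98 to 0.99), for Sparc they were Hip1, Pcyox1 and Gpat4 (0.99 to 1.00), and for Dcn they were Rela, Cbx8 and Gpkow (0.99 each). Lum was nearest to Pdzd11 (0.98), Loxl1 to Zbtb12 (0.98), Postn to Folr1 (0.98), Fbn1 to Zfp607a (0.97) and Pdgfrb to Fgf1 (0.93).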

How the data were processed

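Raw read counts per gene symbol, deposited by the authors without normalization, were used for 18 of 36 samples. Per the submitters' processing notes they were made with HTSeq, and per the labels' protocols the libraries are TruSeq Stranded mRNA. For these libraries the aligner, the genome build and the use of strand in counting are not given in the sources used here. A further 6 columns with repeated names, and a table of 12 columns that match no label, were not analysed here. An even number made up 60.8% to 66.5% of the counts from 1 to 10, so halved counts were tried.

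The tests used edgeR 4.0.16 (R 4.3.3): filterByExpr by group, TMM (0.967 to 1.05), and 1 quasi-likelihood fit of 6 groups with 12 residual degrees of freedom. Tests were two-sided, with Benjamini-Hochberg adjustment over 20511 genes and calls at 0.05. Alternatives were DESeq2 1.42.0, limma 3.58.1 (voom), other scalings and filters, a replicate block and leaving out each library. The scripts were tested on simulated data. The 10 genes and all lists were chosen with earlier results of these data known. The text names the 10 genes, marker genes, genes among the 3 closest by correlation (1 is not reported here), and from each pathway list the called genes with the highest and lowest change at a mean of at least 5 CPM. A few list genes (Fbn2, Epyc, Kera, Itga5, Bgn) are also given as levels. Pairs of replicates differed by more than sampling noise (chi-square over its degrees of freedom 2.15 to 9.52). The values in WT ESC, the reference of both ESC comparisons, were 9.52, 3.17 and 7.62. In the other groups they were at most 4.15.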

Additional observations from a re-analysis of the deposited data

Results flagged for a closer look

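For 16 results the change of a line against WT differed between NPC and ESC by an interaction test (edgeR quasi-likelihood, Benjamini-Hochberg adjustment), given here as the log2 change in NPC minus that in ESC. In dCD, where 42.9% of all genes were called, the values were -0.97 for Fbn1, -0.68 for Loxl1, 1.96 for Lox, 1.31 for Fn1, -0.39 for Postn, 0.12 for Sparc, 1.88 for Thbs1 and -1.35 for Pdgfrb. In MLL2dTAG, where 49.0% were called, they were -3.31 for Fbn1, -1.14 for Loxl1, 1.12 for Lox, 0.51 for Fn1, 1.46 for Postn, 0.19 for Sparc, 1.10 for Thbs1 and -1.06 for Pdgfrb. SE was 0.05 to 0.12 in both lines. For Fbn1 in dCD the difference goes with a rise in ESC and a value of -0.00 in NPC (adjusted p = 1), and in MLL2dTAG with a rise in ESC and a fall in NPC. Pdgfrb and Loxl1 rose in ESC and fell in NPC in both lines, and Fn1 fell in ESC and rose in NPC in dCD. The 2 lines share the WT libraries of each stage, so the 2 sets of values are not independent.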

How the results depend on the processing

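Of 90 results (10 genes in 9 comparisons), 79 were called, and 72 of these kept their call and direction under every alternative run; 7 lost the call under at least 1 and 0 reversed. The 7 were Loxl1 in dCD ESC, Lum in MLL2dTAG ESC, Lum, Thbs1 and Pdgfrb between the lines in ESC, and both Sparc interactions; for these the cause was not tested. The number of genes called between dCD and MLL2dTAG in ESC, 6 in all libraries, was 3 to 5 when a library was left out. Fbn1 in dCD NPC, at -0.00, took the opposite sign with RLE scaling (0.0083), no filter on low counts (0.0185), DESeq2 (0.0077) and only the groups compared (0.0089), and ranged from -0.0278 to 0.0390 when a library was left out. Between dCD and MLL2dTAG in ESC, Dcn reversed with no filter (-0.0232) and limma voom (-0.1101) and ranged from -0.2529 to 0.3432 without 1 library, Fbn1 reversed with no filter (-0.0246) and ranged from -0.0242 to 0.0572, and Lox ranged from -0.1158 to 0.0076. In NPC, Loxl1 between the lines was -0.0023 with voom and ranged from -0.0643 to 0.0831. The Dcn interaction in MLL2dTAG ranged from -0.1168 to 0.0399. The Dcn interaction in dCD, not called, was called with DESeq2 (-0.67, adjusted p = 0.032).

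With the replicate number as a block, the genes called remained 10 and 10 in ESC and 8 and 10 in NPC against WT, and no call of the 10 genes changed. The numbers did not pair the samples: over 45 same-numbered pairs the correlation of deviations was -0.03 to 0.03, and 6 of 18 libraries correlated best with their own number. Lum was not tested with a filter at a mean of 1 CPM. Depth limits Lum in ESC, where the WT libraries held 8 counts in all.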
